A study of Mus musculus with 6 samples.

Results

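The genes examined were 8 writers, erasers and cofactors of DNA methylation: the methyltransferases Dnmt1, Dnmt3a and Dnmt3b, the cofactors Uhrf1 and Hells, and the oxidising enzymes Tet1, Tet2 and Tet3. They were taken by symbol, through the RefSeq accession that the array annotation gives each probe, out of 20891 genes named in this way, with the brightest probe standing for each gene. All 8 were measured, by 15 probes in all. The RNA came from mouse KSL cells, which are positive for c-Kit and Sca-1, negative for lineage markers and hold the hematopoietic stem cells. It was hybridised to 6 Agilent 1-colour arrays. Fetal liver KO was 1 sample with Tie2-Cre and floxed Tif1b (Tif1bf/f), and fetal liver WT was 1 sample with Tie2-Cre and Tif1bw/w. Bone marrow KO was 2 samples with CreERT and Tif1bf/f, and bone marrow WT was 2 samples with CreERT and Tif1bw/w, all from adult marrow. Every sample, WT included, therefore carries a Cre transgene on a C57BL6 background. The driver differs between the tissues, Tie2 being a promoter of endothelial and blood cells, so tissue, age and Cre driver cannot be told apart. In replicate 2 of bone marrow the genotype reads Tif2b in place of Tif1b, and it was taken as the same gene. The free-text descriptions of the replicate 1 bone marrow arrays name HP1 knockdowns (Hp1aKD for WT and Hp1gKD for KO), against their titles and genotypes, which were followed. Ages, the induction of CreERT and any pooling of animals are not given in the sources used here. The labels do not state whether replicates are different animals; a p-value here may therefore reflect technical spread alone.

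In mammals DNA methylation sits mostly on the cytosine of CpG dinucleotides. DNMT3A and DNMT3B place it on unmethylated DNA. DNMT1 copies it onto the new strand after replication, where UHRF1 recognises the half-methylated CpG and recruits DNMT1, and the remodeller HELLS opens packed chromatin to these enzymes. TET1, TET2 and TET3 oxidise 5-methylcytosine, the first step of its removal. In blood stem cells Dnmt3a and Tet2 are known for their roles in self-renewal, and both genes are recurrently mutated in human myeloid disease. TIF1b, listed in the reference as Trim28, is a corepressor that KRAB zinc finger proteins bring to DNA together with the H3K9 methyltransferase SETDB1 and, in early embryos, with DNA methyltransferases. The arrays ask whether its loss changes gene expression in fetal and adult KSL cells, and here whether the transcripts of the methylation machinery are among what changes.

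The promoters of Dnmt3b and Uhrf1 are shown with those of the replication-linked members Dnmt1 and Hells. Dnmt3b and Uhrf1 are the members that passed between the tissues with the authors' value table, described below. The Uhrf1 call depended on the setting. The sequences are from RefSeq on GRCm38.p6, 300 bases each, from 250 bases before the start of transcription to 50 after it, 5' to 3' on the gene's strand. Where a gene has several annotated starts, the start with most CpG is shown. For Dnmt1 and Uhrf1 that window lies downstream of another annotated start, and so within the gene as counted from there. Capitals mark matches to the E2F-type words TTTCCCGC, TTTCGCGC, TTTGCCGC and TTTGGCGC, searched on both strands. The positions are chr2:153649199-153649498 on the plus strand for Dnmt3b, chr17:56304063-56304362 on the plus strand for Uhrf1, chr9:20952574-20952873 on the minus strand for Dnmt1 and chr19:38930740-38931039 on the plus strand for Hells.
Dnmt3b: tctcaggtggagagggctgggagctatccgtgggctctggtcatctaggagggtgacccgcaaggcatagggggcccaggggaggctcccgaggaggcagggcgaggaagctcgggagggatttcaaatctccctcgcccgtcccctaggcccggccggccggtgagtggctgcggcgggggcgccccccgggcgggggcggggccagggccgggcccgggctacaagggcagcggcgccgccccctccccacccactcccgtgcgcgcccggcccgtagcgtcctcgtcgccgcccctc
Uhrf1: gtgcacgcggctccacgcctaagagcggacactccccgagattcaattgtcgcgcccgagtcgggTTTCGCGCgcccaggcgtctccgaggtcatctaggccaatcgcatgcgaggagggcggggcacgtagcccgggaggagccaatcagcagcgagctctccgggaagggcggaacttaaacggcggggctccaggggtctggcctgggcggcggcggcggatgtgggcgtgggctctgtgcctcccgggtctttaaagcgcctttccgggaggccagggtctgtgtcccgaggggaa
Dnmt1: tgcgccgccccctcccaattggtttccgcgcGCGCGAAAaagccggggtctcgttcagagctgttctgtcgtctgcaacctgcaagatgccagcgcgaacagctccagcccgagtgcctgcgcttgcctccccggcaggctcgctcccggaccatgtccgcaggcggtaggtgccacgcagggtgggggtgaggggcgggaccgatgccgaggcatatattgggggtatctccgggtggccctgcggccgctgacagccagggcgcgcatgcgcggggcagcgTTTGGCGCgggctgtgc
Hells: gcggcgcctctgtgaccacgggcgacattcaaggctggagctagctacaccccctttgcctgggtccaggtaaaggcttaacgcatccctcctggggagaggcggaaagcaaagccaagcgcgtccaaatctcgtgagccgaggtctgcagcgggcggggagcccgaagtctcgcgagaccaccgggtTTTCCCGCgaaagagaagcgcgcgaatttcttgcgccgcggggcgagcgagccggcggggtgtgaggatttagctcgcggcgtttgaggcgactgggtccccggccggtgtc

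All 8 members matched the promoter table. CpG dinucleotides numbered 30 in the Dnmt3b promoter, 33 in Uhrf1, 33 in Dnmt1 and 34 in Hells. The median was 7 over 32817 promoters of the same length. These counts are for starts picked for most CpG, whereas the median covers every annotated start. At the other starts the count was 12 and 2 in Dnmt1 and 12 in Uhrf1. At the starts with most CpG the count ran from 17 in Tet1 to 57 in Tet2 among all 8 members. In the shown windows an E2F-type word was found in Uhrf1 (TTTCGCGC), Dnmt1 (GCGCGAAA and TTTGGCGC) and Hells (TTTCCCGC). No annotated start of the other 5 members held one. The other annotated starts of Dnmt1 and Uhrf1 held none, among them chr9:20952930-20953229 in Dnmt1. The shown windows of both genes lie downstream of such a start. For a transcript from there, their CpG and words are gene sequence rather than promoter. Which start KSL cells use was not tested. Of all promoters, 2.26% hold at least 1 of these words. A match is only a run of letters, and these data do not test whether a factor binds there.

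Each level below is a log2 signal relative to the array's 75th percentile. The array labelled bone marrow WT replicate 1 stood apart. Its scanner file and its column in the authors' deposited value table disagreed: 1.41% of the probes compared lay within 1% of a common ratio, against 100% for each of the other 5 arrays. In the scanner file that array had a Trim28 level of 2.45, a Kit level of 1.30 and a median of 4.22 over 10 B lymphoid markers. In the value table its Trim28 level was 5.18, its Kit level 4.16 and its B lymphoid median -3.32, within or near the range of the other arrays. Trim28 itself was 1.68 in fetal liver KO and 5.97 in fetal liver WT, and 1.28 and 0.75 in bone marrow KO and 5.55 in bone marrow WT replicate 2. Kit lay between 4.17 and 4.50 on those 5 arrays. Ly6a, which encodes Sca-1, was 0.77 and 0.31 in fetal liver KO and WT, against 3.36 to 6.04 in bone marrow with the value table, so that this marker of the sort was lower on both fetal arrays. The members' levels on the array that stood apart are given from both sources, and other results name their source. The sources are called the scanner files and the value table, and differ only in that array beyond rounding. Between 24383 and 31419 probes per array were well above background.

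The de novo methyltransferase gene Dnmt3b showed the widest tissue difference of the 8. Its level was 6.84 in fetal liver KO and 6.89 in fetal liver WT. In bone marrow it was 4.79 and 4.65 in the KO arrays, and 4.43 (value table) or 2.23 (scanner file) in WT replicate 1 and 4.88 in WT replicate 2. The fetal arrays of either genotype were above every bone marrow array. Fetal liver minus bone marrow, fitted together with genotype over the 6 arrays by limma, was 2.18 ± 0.21 (SE) with the value table, which is 4.53-fold, with a Benjamini-Hochberg adjusted p of 0.00465. With the scanner files it was 2.73 ± 0.79 and did not pass (limma, adjusted p = 0.130), and without the array that stood apart it was 2.08 ± 0.22 and passed (adjusted p = 0.0140, with 13.2% of genes passing). The other 2 Dnmt3b probes differed in the same direction, by 1.64 and 1.99 with the value table. In each of the 12 alternative settings of the value table other than the scanner files the difference passed.

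Its relative Dnmt3a, the other de novo enzyme, was measured at 3.03 in fetal liver KO and 2.71 in fetal liver WT. Its bone marrow levels were 1.81 and 2.22 in KO, and 1.74 (value table) or 1.29 (scanner file) and 2.39 in WT. The fetal and marrow arrays did not overlap. The fetal minus marrow difference was 0.83 ± 0.27 with the value table (limma, adjusted p = 0.0778) and 0.94 ± 0.39 with the scanner files (adjusted p = 0.197), so it did not pass in either. In the value table the difference for Dnmt3b was 2.18 and that for Dnmt3a 0.83, but the difference between these genes was not tested.

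Uhrf1, which guides DNMT1 to replicated DNA, had a level of 7.28 in fetal liver KO and 7.28 in fetal liver WT. In bone marrow it was 6.21 and 5.35 in KO and 6.13 (value table) or 5.94 (scanner file) and 5.87 in WT. Every fetal array was again above every marrow array. The difference was 1.39 ± 0.29 with the value table, which is 2.63-fold (limma, adjusted p = 0.0283), and 1.44 ± 0.33 with the scanner files, which did not pass (adjusted p = 0.0925). The dimmer probe of Uhrf1 differed by 1.57 with the value table. This call did not hold with every array left out. It was lost without fetal liver KO (1.29), without fetal liver WT, without bone marrow WT replicate 1 (1.46) and without bone marrow WT replicate 2 (1.35). The difference itself stayed between 1.19 and 1.56 whichever array was left out. Fewer genes of the whole set passed in each of these smaller fits, so the loss is not particular to Uhrf1.

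Dnmt1, the maintenance enzyme, had a level of 3.15 in fetal liver KO and 3.08 in fetal liver WT. It had 3.10 and 2.60 in bone marrow KO and 2.77 (value table) or 1.80 (scanner file) and 2.89 in bone marrow WT, and the tissues overlapped in the value table. Fetal minus marrow was 0.28 ± 0.21 in the value table, with a 95% interval of -0.26 to 0.81 (limma, adjusted p = 0.359), and 0.52 ± 0.40 in the scanner files (0.438). Hells had 0.81 in fetal liver KO and 0.75 in fetal liver WT, against 1.30 and 0.51 in bone marrow KO and 1.39 (value table) or 0.32 (scanner file) and 1.04 in bone marrow WT. Its marrow arrays spread over a wider range than the fetal pair and enclosed it, and the difference was -0.28 ± 0.29 in the value table (interval -1.004 to 0.45, limma adjusted p = 0.495) and -0.01 ± 0.37 in the scanner files (0.989). Uhrf1 and Dnmt1 act in one pathway, yet only the first passed, and only with the value table. The difference between them was not tested.

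Of the oxidising enzymes, none passed between tissues. Tet1 was 0.88 in fetal liver KO and 0.89 in fetal liver WT, and 1.22 and 1.70 in bone marrow KO and 0.83 (value table) or 0.82 (scanner file) and 1.51 in bone marrow WT. Its value in WT marrow replicate 1 was close in both sources, unlike those of Dnmt3b and Dnmt1. Tet2 was 1.72 in fetal liver KO and 1.36 in fetal liver WT, against 0.81 and 0.72 in bone marrow KO and 1.38 (value table) or 0.64 (scanner file) and 1.19 in bone marrow WT. Tet3 was -1.11 in fetal liver KO and -0.98 in fetal liver WT. In bone marrow Tet3 was -1.77 and -1.23 in KO and -1.81 (value table) or -1.55 (scanner file) and -1.20 in WT. Fetal minus marrow in the value table was -0.43 ± 0.28 for Tet1 (limma, adjusted p = 0.285), 0.52 ± 0.26 for Tet2 (0.179) and 0.46 ± 0.27 for Tet3 (0.244). In the scanner files it was -0.43 ± 0.33 for Tet1 (limma, adjusted p = 0.430), 0.70 ± 0.29 for Tet2 (0.199) and 0.39 ± 0.28 for Tet3 (0.407).

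**Figure D1:**
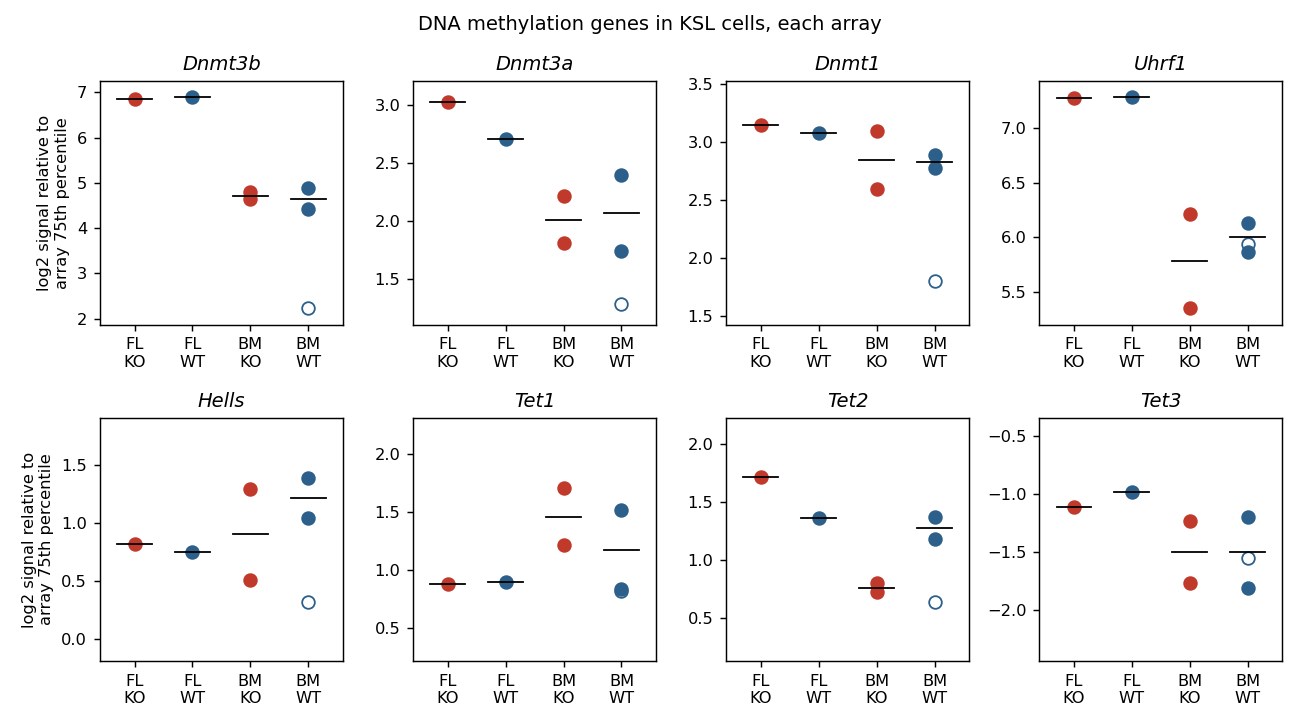
Level of each of the 8 genes on every array (y axis, log2 signal relative to the array's 75th percentile; each panel has its own axis), for fetal liver (FL) KO and WT and bone marrow (BM) KO and WT. Filled points are arrays with bone marrow WT replicate 1 taken from the value table, open circles are that array in its scanner file, and black bars are group means of the filled points; the fetal points of Dnmt3b (6.84 and 6.89) and Uhrf1 (7.28 each) lie above all marrow points.

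Counted together, 2 of the 8 members were higher in fetal liver and none lower with the value table, and none passed with the scanner files. Over all genes 13.9% passed as higher and 8.9% as lower in the value table, and 1.23% and 0.873% in the scanner files. Fetal and marrow arrays did not overlap, with fetal liver higher, for 4 of 8 members in the value table (Dnmt3b, Uhrf1, Dnmt3a and Tet3) and for 5 in the scanner files, which add Tet2; the shares over all genes were 36.8% and 33.7%. The members' median difference was 0.49 in the value table, beside 0.26 over all genes tested, and 0.61 beside 0.30 in the scanner files. Quantile normalization moved the median of all genes to 0.04 and 0.06, so a tissue difference is best read against that shift. It also moved the share of calls that were higher from 60.9% to 46.0% in the value table and from 58.4% to 47.1% in the scanner files. Under quantile normalization Dnmt3b differed by 1.66 (limma, adjusted p = 0.0148) and Uhrf1 by 0.81 (0.0373), which is 1.76-fold, with 21.6% of genes passing, and the same 6 members as before had a difference above 0.

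Each slide holds KO and WT of 1 tissue. With the slide as a random block in the value table Dnmt3b still passed (limma, adjusted p = 0.0216) and Uhrf1 did not (0.0807), with 6.07% of genes passing. Fetal liver comes from 1 slide, so its slide and tissue cannot be told apart. In bulk RNA, more cells of a type and more RNA per cell cannot be told apart either.

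**Figure D2:**
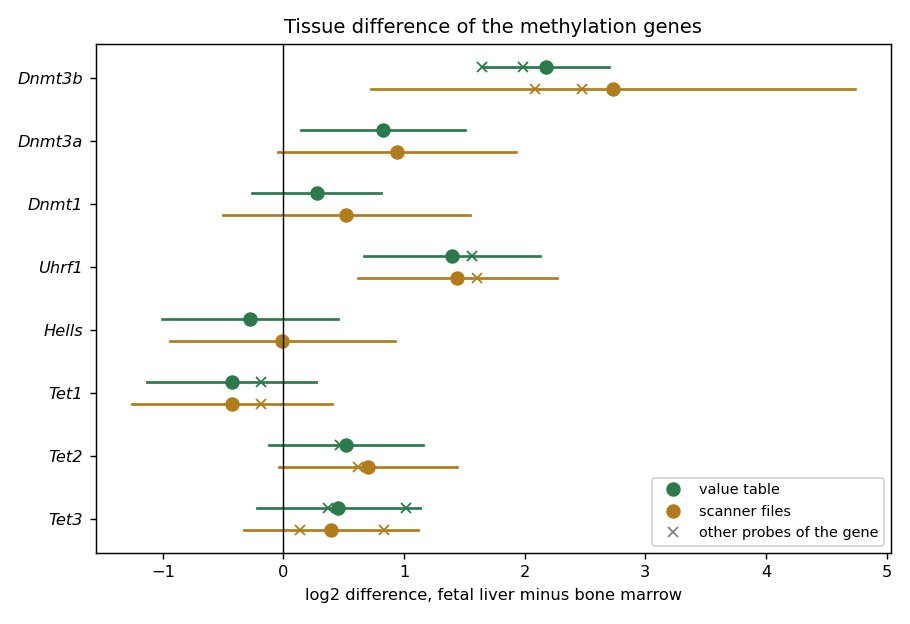
Log2 difference of fetal liver minus bone marrow for each gene (x axis), from the value table (green) and the scanner files (ochre); large points are the brightest probe with 95% intervals from limma, crosses are the gene's other probes. The intervals of Dnmt3b and Uhrf1 lie above 0 in both sources, while those of Dnmt1, Hells, Tet1, Tet2 and Tet3 include 0.

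Loss of Tif1b left no member past the threshold in bone marrow. Dnmt3b differed by 0.06 ± 0.28 between KO and WT in the value table, with a 95% interval of -0.63 to 0.76, and Dnmt1 by 0.02 ± 0.29 (-0.70 to 0.74), Dnmt3a by -0.05 ± 0.33 (-0.89 to 0.78) and Uhrf1 by -0.22 ± 0.36 (-1.13 to 0.69). With the scanner files Dnmt1 differed by 0.50 ± 0.52, Dnmt3a by 0.17 ± 0.52 and Uhrf1 by -0.13 ± 0.45. The limma adjusted p-values of all 8 members lay between 0.570 and 1.00 in the value table and were 1.00 in the scanner files. Over all genes 0.811% passed in the value table. None of 13174 passed in the scanner files with limma, where 4.23% had an unadjusted p under 0.05 and no member did. The 95% intervals of all 8 members in the value table lay between -1.20 and 1.16.

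Tet2 was the only member whose KO and WT marrow arrays did not overlap in the value table, lower in KO by 0.52 on the log2 scale (0.81 and 0.72 in KO, 1.38 and 1.19 in WT; limma, adjusted p = 0.570, and 0.148 with the slide as a block). Over all genes 19.5% did not overlap and were lower in KO, and 17.7% were higher. With the scanner files, in which WT replicate 1 had a Tet2 level of 0.64, the difference was -0.15 and the groups overlapped, where 13.1% of all genes were lower without overlap. In the marrow Dnmt3b differed by 1.17 ± 0.92 with the scanner files (limma, adjusted p = 1.00), with the WT array that stood apart at 2.23. Against that array alone, without WT replicate 2, the difference was 2.49 and passed (limma, adjusted p = 0.000476; 16.9% of genes passed in that fit). That fit takes its spread from the KO arrays alone and assumes that the lone WT array varies like them. Without the array that stood apart, in a fit of the same kind, the difference was -0.16.

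In fetal liver there was 1 KO and 1 WT array, so no test was made. The differences of KO minus WT ran from -0.13 for Tet3 to 0.36 for Tet2, with 0.32 for Dnmt3a, 0.07 for Dnmt1, 0.06 for Hells, -0.01 for Uhrf1, -0.01 for Tet1 and -0.04 for Dnmt3b. None of the 8 reached 2-fold in either direction, against 5.41% of genes at least 2-fold higher and 4.47% at least 2-fold lower. Tet2 was thus higher in KO of the fetal pair and lower in KO of both marrow pairs of the value table. The test of that difference did not pass (0.87 ± 0.44, limma adjusted p = 0.920). No gene passed it in either source, while 7.08% of 13695 had an unadjusted p under 0.05 in the value table. Over both tissues no member passed for genotype in either source (limma, adjusted p of at least 0.832), beside 0.175% of genes in the value table and 0 of 13858 in the scanner files, where 3.46% had an unadjusted p under 0.05.

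**Figure D3:**
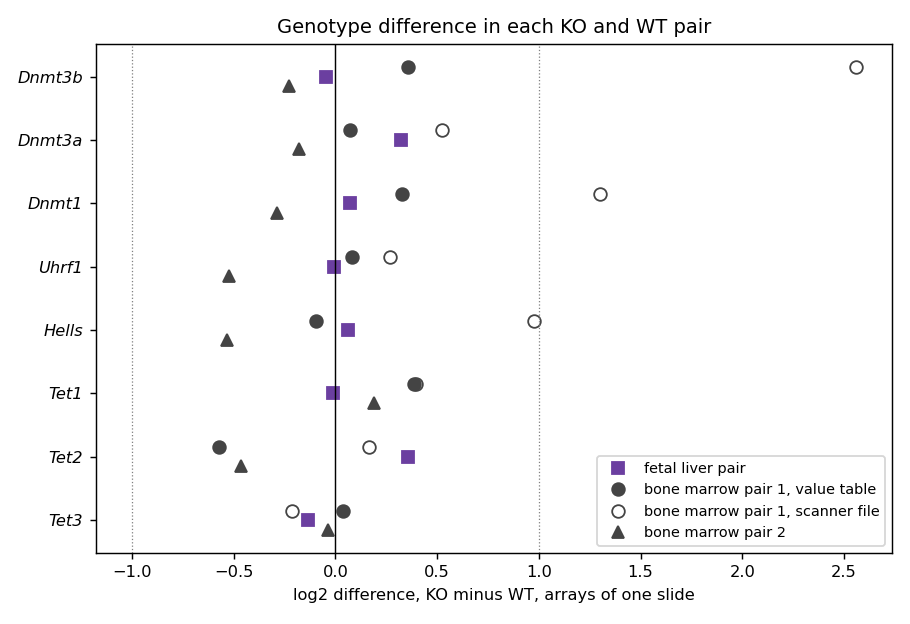
Log2 difference of KO minus WT (x axis) for each gene in the fetal liver pair (squares), in bone marrow pair 1 with WT from the value table (filled circles) or from its scanner file (open circles), and in bone marrow pair 2 (triangles); the arrays of a pair share a slide, and dotted lines mark 2-fold. Apart from the open circles of Dnmt3b and Dnmt1, all points lie within 2-fold, and those of Tet2 are above 0 in fetal liver and below 0 in both marrow pairs of the value table.

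The genes around the members were taken from lists chosen with earlier results of these data known. Between the tissues 19 genes of these lists passed in the value table, where 13.9% of all genes were higher and 8.9% lower, and their calls depended on the setting. None of the 19 passed with the scanner files (limma, adjusted p between 0.0631 and 0.397), and 1 passed, Ccne1, with the slide as a random block (adjusted p between 0.0466 and 0.167 with that estimated correlation). Without the array that stood apart 2 passed (adjusted p between 0.0278 and 0.0950), and under quantile normalization 13 did.

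Of 23 tested readers and partners of methylated DNA, 2 were higher and 5 lower in fetal liver with the value table (limma, adjusted p under 0.05), with a median difference of 0.17 beside 0.26 over all genes. With the slide as a random block none of them passed (limma, adjusted p between 0.0931 and 0.167). The lower ones include genes of proteins that bind methylated CpG: Zbtb4 by -1.30 ± 0.32 (limma, adjusted p = 0.0407) and Zbtb38 by -0.86 ± 0.22 (0.0441), together with Mbd5 (-0.88) and Cdca7l (-0.72), a relative of the HELLS partner Cdca7. The higher ones were Mbd3 (0.69 ± 0.17, limma adjusted p = 0.0435), a subunit of the NuRD complex, and Dppa3, whose protein affects DNA methylation in the oocyte and zygote. Mbd3 differed by 0.19 under quantile normalization and did not pass (limma, adjusted p = 0.468), nor did Dppa3 (0.126).

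Dppa3 was well above background on the fetal liver KO array alone, at -1.67. It was not well above background at -5.21 in fetal liver WT, nor on any marrow array. In the fetal pair its signal was at least 3.04-fold higher in KO, from the lowest signal well above background on the WT array. Its tissue call (limma, adjusted p = 0.0476) rests on that single KO array, through which alone the gene entered the test, so it is not read as a tissue difference.

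Dnmt3l, the catalytically inactive partner of DNMT3A and DNMT3B in germ cells, had the largest KO difference of its list in marrow. It was -4.52 and -3.93 in bone marrow KO, against -2.06 (value table) or -2.21 (scanner file) and -2.21 in bone marrow WT. The marrow groups did not overlap in either source, and 1 of the 2 KO arrays measured the gene: in KO replicate 1 the probe was not well above background. Over all genes 19.5% were lower in KO without overlap in the value table and 13.1% in the scanner files. The gene entered the test through WT, where it is higher. Taking that background reading as it stands, the difference was -2.09 ± 0.30 in the value table, which missed the threshold (limma, adjusted p = 0.0630) and passed with the slide as a block (0.0126, in a fit where 7.49% of genes passed). With the scanner files it was -2.01 ± 0.40 (limma, adjusted p = 0.944), and without the WT array that stood apart it was -2.01 (0.0344, with 1.94% of genes passing), in a fit that takes its spread from the KO arrays alone. In fetal liver the order was the opposite, -0.79 in KO and -2.41 in WT. The test of the difference between tissues gave 3.71 in the value table (limma, adjusted p = 0.222 without and 0.0334 with the slide block, where 2.79% of genes passed) and 3.63 in the scanner files (1.00).

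Among 23 tested genes of demethylation and base excision repair, 1 was higher and 3 lower in fetal liver with the value table, with a median of 0.08. With the slide as a random block none passed (limma, adjusted p between 0.101 and 0.114). Xrcc1, a scaffold of single-strand break repair, was higher by 0.76 ± 0.18 (limma, adjusted p = 0.0355), and by 0.42 under quantile normalization, where it did not pass (0.0996). Gadd45g and Gadd45b, stress-induced genes linked to active demethylation, were lower, with differences of -1.23 ± 0.28 (0.0332) and -0.995 ± 0.225 (0.0341). The glycosylase gene Neil2 was not well above background on either fetal array, so that its marrow signal was at least 1.70-fold higher in the value table (limma, adjusted p = 0.0209), with no such bound in the scanner files. It entered the test only through marrow, so its call, 1 of the 3 lower, is read as that bound alone. In bone marrow KO no gene of the list passed without the block. With the slide as a block in the value table, Gadd45g was higher by 1.102 (limma, adjusted p = 0.0365). Idh1, whose enzyme makes the 2-oxoglutarate that TET proteins use, was lower by 1.23 on the log2 scale (limma, adjusted p = 0.0250). In that fit 7.49% of all genes passed. With the scanner files no gene of the list passed under the block. Idh2 was lower in KO by 0.83 and did not pass (limma, adjusted p = 0.420 without the block).

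Of 14 genes that supply methyl groups, 1 was lower in fetal liver of the value table, Ahcyl1 (-0.87 ± 0.21, limma adjusted p = 0.0405, and 0.103 with the slide as a random block), and none was higher. Mat2a and the other synthesis and recycling enzymes did not pass. Of 11 genes of H3K9 methylation, the histone pathway in which TIF1b works, Cbx5 (1.23 ± 0.23, adjusted p = 0.0218) and Suv39h1 (1.21 ± 0.25, 0.0263) were higher in fetal liver of the value table and none lower. With the slide as a random block neither passed (limma, adjusted p = 0.0801 and 0.0735). Setdb1, the enzyme that TIF1b recruits, differed by 0.88 ± 0.29 between KO and WT in marrow of the value table and did not pass (limma, adjusted p = 0.330).

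Uhrf1, Dnmt1 and Hells belong with genes of S phase, when methylation is copied. Of 34 tested S phase genes, 4 were higher in fetal liver with the value table (Ccne1 2.02 ± 0.29, Mcm10 1.31 ± 0.34, Rrm2 1.15 ± 0.30 and Cdc6 0.99 ± 0.24; limma, adjusted p of 0.0116, 0.0479, 0.0467 and 0.0407) and none lower. Over all genes 13.9% were higher. With the slide as a random block Ccne1 passed (limma, adjusted p = 0.0466), and Mcm10 (0.125), Rrm2 (0.136) and Cdc6 (0.145) did not. The list's median was 0.40, beside 0.26 for all genes and 1.39 for Uhrf1. Under quantile normalization the list's median was -0.08, with 1 gene higher (Ccne1) and 1 lower, so no direction is given for the list as a whole.

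Germline genes that DNA methylation keeps silent in the body were mostly dim, with 6 of 17 tested in the value table. Brdt passed as higher in fetal liver of the value table (0.84 ± 0.17, limma adjusted p = 0.0253), and did not with the slide as a random block (0.0807). Ddx4, the germ cell helicase, was 2.30 in fetal liver KO and 0.47 in fetal liver WT. In bone marrow it was 0.63 and -0.22 in KO, and -0.25 (value table) or -1.65 (scanner file) and -1.63 in WT. Every KO array was above the WT array of its own slide, and the marrow groups did not overlap in either source, though KO replicate 2 was barely above WT replicate 1 in the value table. Over all genes 17.7% were higher in marrow KO without overlap in the value table and 15.5% in the scanner files. The marrow difference was 1.14 ± 0.55 in the value table (limma, adjusted p = 0.566, and 0.0407 under the slide block) and 1.84 ± 0.45 in the scanner files (1.00). Between the tissues Ddx4 was the 1 list gene that passed with the scanner files, higher in fetal liver by 2.10 ± 0.32 (limma, adjusted p = 0.0493), though fetal liver WT lay below bone marrow KO replicate 1. With the value table the tissue difference of Ddx4 was 1.75 ± 0.48 and did not pass (limma, adjusted p = 0.0518). Tdrd9 was -2.42 in fetal liver KO and -5.21, not well above background, in fetal liver WT, at least 1.80-fold higher.

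No list had a gene that passed for genotype in bone marrow without the block in either source, beside 0.811% of genes in the value table.

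**Figure D4:**
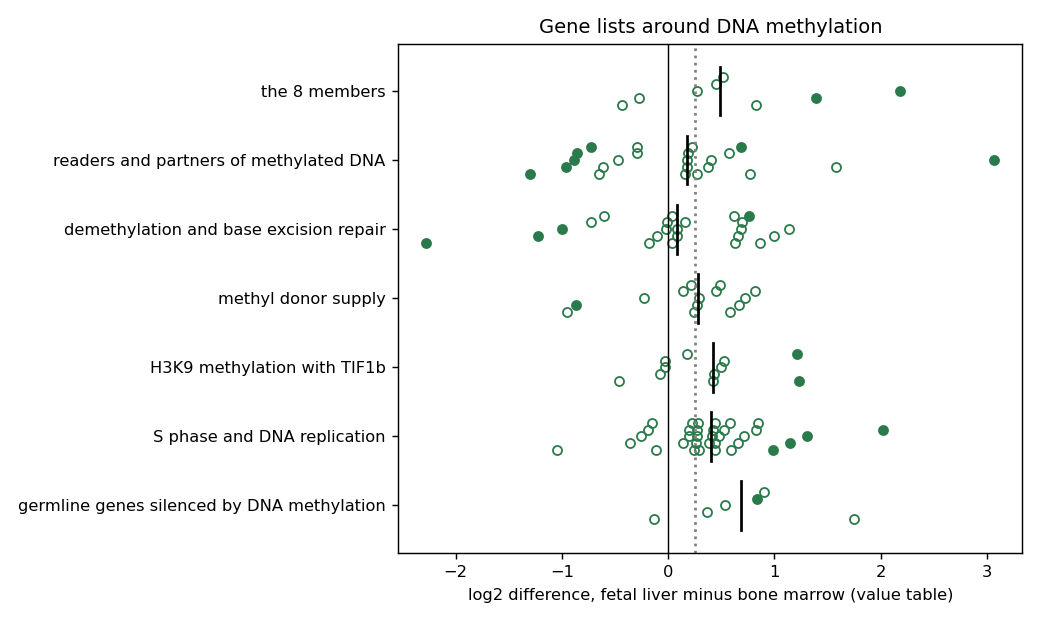
Log2 difference of fetal liver minus bone marrow in the value table (x axis) for the 8 genes and 6 lists around them, each point a tested gene, filled where the limma adjusted p is under 0.05; black bars are list medians and the dotted line is the median of all genes (0.26). Dnmt3b (2.18) and Uhrf1 (1.39) are the filled points of the members.

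Some markers of other cells differed between the tissues as well. The summed level of 7 neutrophil markers was 11.55 in fetal liver KO and 11.60 in fetal liver WT, against 8.04 and 4.66 in bone marrow KO and 10.34 (value table) and 9.38 in bone marrow WT. Between 6 and 7 of the 7 were above background on each array. The 4 endothelial markers summed to 5.32 and 5.19 in fetal liver KO and WT, against 3.73 to 4.18 in bone marrow of the value table. Their median level went the other way, at -1.42 and -1.33 in fetal liver KO and WT, against -1.04 to -0.51 in bone marrow of the value table. Hepatocyte markers were 0.48 and 3.07 in fetal liver KO and WT and -1.17 to 1.75 in marrow, with Apoa1 above background on no array and Alb above background on the fetal arrays alone. The 5 measured erythroid markers summed to 7.61 in fetal liver KO and 6.33 in fetal liver WT, against 6.10 and 3.37 in bone marrow KO and 1.91 (value table) and 2.36 in bone marrow WT. The 5 monocyte markers summed to 6.53 in fetal liver KO and 6.93 in fetal liver WT, against 3.27 and 2.75 in bone marrow KO and 7.19 (value table) and 6.12 in bone marrow WT. In the value table the neutrophil, endothelial and erythroid sums were higher on both fetal arrays than on any marrow array. The endothelial median was lower on both fetal arrays, so no direction is given for those markers. The B lymphoid sums and the T and NK sums overlapped between the tissues in the value table. The stem and progenitor median was 0.33 and 0.56 in fetal liver KO and WT, against 1.47 to 3.02 in marrow of the value table. The stem and progenitor sums overlapped, at 8.08 and 8.15 against 7.90 to 8.27. In the same source the neutrophil and monocyte sums were lower on both marrow KO arrays than on either marrow WT array. The part of other cells in the members' differences was not tested.

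Across the 6 columns of the value table Dnmt3b varied with Uhrf1 (Pearson r = 0.91) and Dnmt3a (r = 0.88). Dnmt3a also varied with Tet3 (r = 0.89), and Dnmt1 with Uhrf1 (r = 0.84). Hells ran against Tet3 (r = -0.82) and Tet1 against Uhrf1 (r = -0.81). These are descriptions over 6 points that share tissues and slides, so no p is given. Of 13695 genes, the pattern of Dnmt3b was most like those of Rad54l2 and Oaf (r = 1.00 each) and that of Uhrf1 most like those of Rgs19 and Snrpa (r = 1.00 each). The pattern of Dnmt1 was most like those of E2f8 and Mis18a (r = 0.99 each) and that of Tet2 like those of Ifitm6 and Sipa1l2 (r = 0.99 each). Dnmt3a had Ap3d1 and Hipk2, Hells had Smarca5-ps and Riok1, Tet1 had Slc12a7 and Ctdsp2, and Tet3 had Pogk and Ahdc1 (r between 0.99 and 1.00 for all 8).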

How the data were processed

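Total RNA (10 ng) was amplified and labelled with Cy3, per the labels' protocols. Spot intensity (62976 spots per array) comes from the deposited scanner files. The submitters' processing notes name Agilent Feature Extraction, version 10.7.1.1. The column gProcessedSignal holds background-corrected intensity, per the file headers. The value table deposited by the authors gives a linear ratio per probe. For 5 arrays this ratio equals scanner signal over a constant close to the array's 75th percentile, so it keeps the direction and shows no centring by gene; for bone marrow WT replicate 1 its link to the scanner file stays unknown. The medians of the ratio were 0.0709 (fetal liver KO), 0.0705 (fetal liver WT), 0.056 and 0.064 (bone marrow KO) and 0.057 and 0.063 (bone marrow WT).

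Levels were log2(gProcessedSignal), or log2 of the ratio, minus each array's 75th percentile; control and outlier spots were left out and repeated spots averaged. The files carry different versions of the probe annotation: the newest was used and older ones filled gaps, which named 27517 of 55681 probes through RefSeq accessions (51 probes were named differently between files, and Tet1 is named only in newer files). A gene was tested where its brightest probe was well above background on all arrays of 1 or more groups. In the table column of bone marrow WT replicate 1, a level over -3.7 stood for that flag, which matched 99.1% of the flags on the KO array of the same slide.

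limma (version 3.58.1, under R 4.3.3) was fitted over all tested genes, and Benjamini-Hochberg adjusted p under 0.05 made a call. The marrow genotype fit used 4 arrays; genotype and tissue came from 1 model over 6 arrays, and the interaction assumes that the lone fetal arrays vary like marrow arrays. The fits were tested on simulated data with a fixed spread, so the shares recovered do not carry over to these arrays. Planted log2 changes of 3 were recovered in 100% in every fit. Those of 1.5 were recovered in at least 99%, except in the interaction (51% for the scanner files and 50% for the value table). False calls made up 3.82% to 8.26% of the calls. The number of arrays limits the precision. KO and WT of a replicate share a slide, read from the file headers; over all genes their deviations from the group means correlated at 0.56 in the value table and 0.05 in the scanner files. Alternatives were quantile normalization, normexp with an offset of 50 (on median spot and background intensities, since the files hold no mean signal), other filters, the mean over probes, the slide as a block and each array left out.

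The members and lists were chosen with earlier results of these data known. Named genes are the members, Trim28, Kit and Ly6a, list genes that passed a test, the 2 highest and 2 lowest of each list by the marrow genotype and tissue differences (value table), and per member the 2 genes of most similar pattern; some others were named after their values were seen (Idh2, Tdrd9 among them). Some list genes that this rule names are not reported here. Each promoter sequence is from RefSeq.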

Additional observations from a re-analysis of the deposited data

Results flagged for a closer look

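For each gene below, KO minus WT had one sign in the fetal liver pair and the opposite sign in both bone marrow pairs. Some of these differences are small. Not every list gene with such signs was flagged, and the share over all genes is not given. The value is the fetal difference minus the marrow difference on the log2 scale, and the test of it passed for none of them without the slide block (limma, adjusted p between 0.222 and 1.00). Genes with a pair in which neither array was well above background are left out. Fetal liver holds 1 pair, so its own spread is unknown.

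Among the members, Tet2 gave 0.87 in the value table (0.36 in fetal liver, -0.57 and -0.46 in the marrow pairs). Hells gave 0.38 in the value table (0.06 in fetal liver, -0.09 and -0.53 in the marrow pairs). Tet1 gave -0.30 in the scanner files and -0.30 in the value table, from a fetal difference of -0.01. The fetal difference changed sign in 1 of 4 alternative settings for Hells and in 2 of 4 for Tet1, so neither is read as a movement.

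Dnmt3l stood out among the partners, with 3.63 in the scanner files and 3.71 in the value table (1.62 in fetal liver, -2.46 and -1.72 in the marrow pairs of the value table). The KO array of marrow pair 1 was not well above background for it, so these values contain a background reading. Zbtb38 gave -1 in the scanner files and -0.57 in the value table.

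In the repair list Smug1, a uracil glycosylase gene, gave -1.05 in the scanner files and -0.79 in the value table. Gadd45a of that list, not covered by the tests quoted above, also had opposed signs (1.28 in fetal liver, -0.15 and -0.03 in the marrow pairs). In the methyl donor list Ahcyl2 gave 0.69 and Mthfd2 gave 0.66 in the scanner files. In S phase Ccne1 gave 0.75 in the scanner files and 0.65 in the value table, and Cdc6 gave 0.67 in the value table.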

How the results depend on the processing

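No member's called difference changed direction in any setting. In the value table Dnmt3b kept its tissue call in 11 of 12 settings (adjusted p at most 0.0302, the exception being the scanner files) and Uhrf1 in 5 of 12 (adjusted p between 0.0168 and 0.193 over all). Counting every member in all 8 fits, called or not, the difference changed sign in 86 of 736 values. The counts of genes called moved more; the cause was not tested. In bone marrow the scanner files gave 0 calls (105 with the value table; 0 to 2220 with an array left out: 256 without WT replicate 1, 2220 without WT replicate 2). The value table's 105 became 10 without a filter, 26 with the probe above background on all arrays, 970 with the replicate block and 0 with the scanner files (332 to 644 with an array left out). For genotype over both tissues the scanner files' 0 became 2 with quantile normalization and 24 with the value table (0 to 1 with an array left out); the value table's 24 became 37, 11 without a filter, 0 with the replicate block and 0 with the scanner files (0 to 73). Between tissues the scanner files' 291 became 190 with normexp and 3116 with the value table (0 to 1831 with an array left out; 1831 without bone marrow WT replicate 1); the value table's 3116 became 1796 without a filter, 831 with the random replicate block and 291 with the scanner files (786 to 2203). The interaction's 0 became 96 with quantile normalization and 382 with the replicate block in the value table (142 to 299 with an array left out), and 0 to 1361 in the scanner files with an array left out. In fetal liver 1272 genes past 2-fold became 445 with normexp. The replicate block changed no member's call except that of Uhrf1 between tissues. Dim probes limit what can be read for Dppa3, Neil2, Tdrd9 and Dnmt3l.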
